A study of Homo sapiens with 6 samples.

Results

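The 10 genes described here encode the alpha and beta tubulins TUBA1A, TUBA1B, TUBA1C, TUBA4A, TUBB, TUBB2A, TUBB2B, TUBB3, TUBB4B and TUBB6. They are 10 of the 11963 genes that a probe set with a single gene symbol measured. They were chosen by gene symbol from the platform annotation in GEO, which gave 19 probe sets. A further 3 probe sets were annotated only to several tubulin genes and are given as shared. The list of members was proposed with results of this same comparison known, so the calls made on them describe these arrays and are not independent evidence.

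The cells were HK2, an immortalised epithelial line derived from the human proximal tubule, and mRNA was measured on single-colour Affymetrix arrays. In the knockdown group, cells at 30% confluence were transfected with siRNA against OCRL and collected after 96 h. The reference cells received a non-targeting siRNA at the same confluence and for the same time. Both groups were grown in DMEM F12 with insulin, transferrin and selenium and were transfected with Dharmafect 4. Each group held 3 arrays from independent experiments, which limits precision. The labels do not say whether the OCRL siRNA was a single sequence or a pool, and all arrays come from this 1 cell line. An effect of the reagent and an effect of lower OCRL therefore cannot be told apart here.

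Microtubules are hollow polymers of dimers of alpha and beta tubulin, each of which is encoded by a family of closely related genes called isotypes. TUBA1B, TUBA1C, TUBB, TUBB4B and TUBB6 are widely expressed, whereas TUBA1A, TUBB2A, TUBB2B and TUBB3 are best known from neurons and the developing brain. Cells also adjust tubulin mRNA stability to the pool of free dimers, a feedback called autoregulation, in which TTC5 recognises the nascent tubulin chain on the ribosome. The OCRL protein removes phosphate from phosphoinositides on endosomes and Golgi membranes, organelles that are carried and positioned along microtubules.

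As a check of the labels, OCRL was lower in each knockdown array by both of its probe sets. The brighter of these was at 7.47 ± 0.064 in OCRL siRNA cells and at 9.49 ± 0.014 in control siRNA cells (log2 intensity, mean ± SD, n = 3 each), so 24.6% of the control level remained. Of 9 measured epithelial and kidney markers, KRT8, KRT18, EPCAM, CDH6 and PAX8 lay above the upper quartile on every array, KRT7, KRT19 and PAX2 did not, and CDH1 lay below the lower quartile on every array. Of 9 measured proximal tubule markers, LRP2, AQP1 and ANPEP lay below the lower quartile on every array. Across all 22215 probe sets tested by limma, 5137 were called at an adjusted p under 0.05, which is 23.1%. These were 2939 higher (13.2%) and 2198 lower (9.89%), a split that median centring of the arrays turned to 2274 higher and 3138 lower. The groups did not overlap in 40.7% of probe sets, 18.9% with the OCRL siRNA arrays lower.

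Among the tubulins, 3 genes were called lower after OCRL siRNA and 0 were called higher. TUBA1A fell to 62.5% of the control level, TUBB2B to 72.0% and TUBB2A to 84.5%. TUBA1B, TUBA1C, TUBA4A, TUBB, TUBB3, TUBB4B and TUBB6 were not called by any of their probe sets. The 3 called probe sets stand among 19, where the background share of lower calls was 9.89%, and as the members were chosen with this contrast known, nothing is read from that count. By genes it was 3 of 10, where 26.0% of all genes were called and 10.5% were called lower. The median log2 difference was -0.05 over the 19 probe sets and -0.01 over all probe sets. At an unadjusted p under 0.05 in limma were 4 of the 19 member probe sets, beside 7783 of all 22215. TUBA4A was the only one of the 4 that did not pass after adjustment. Throughout, values are log2 probe set intensities, a difference is the OCRL siRNA mean minus the control mean in log2 units, and SE is the moderated standard error of limma.

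**Figure D1:**
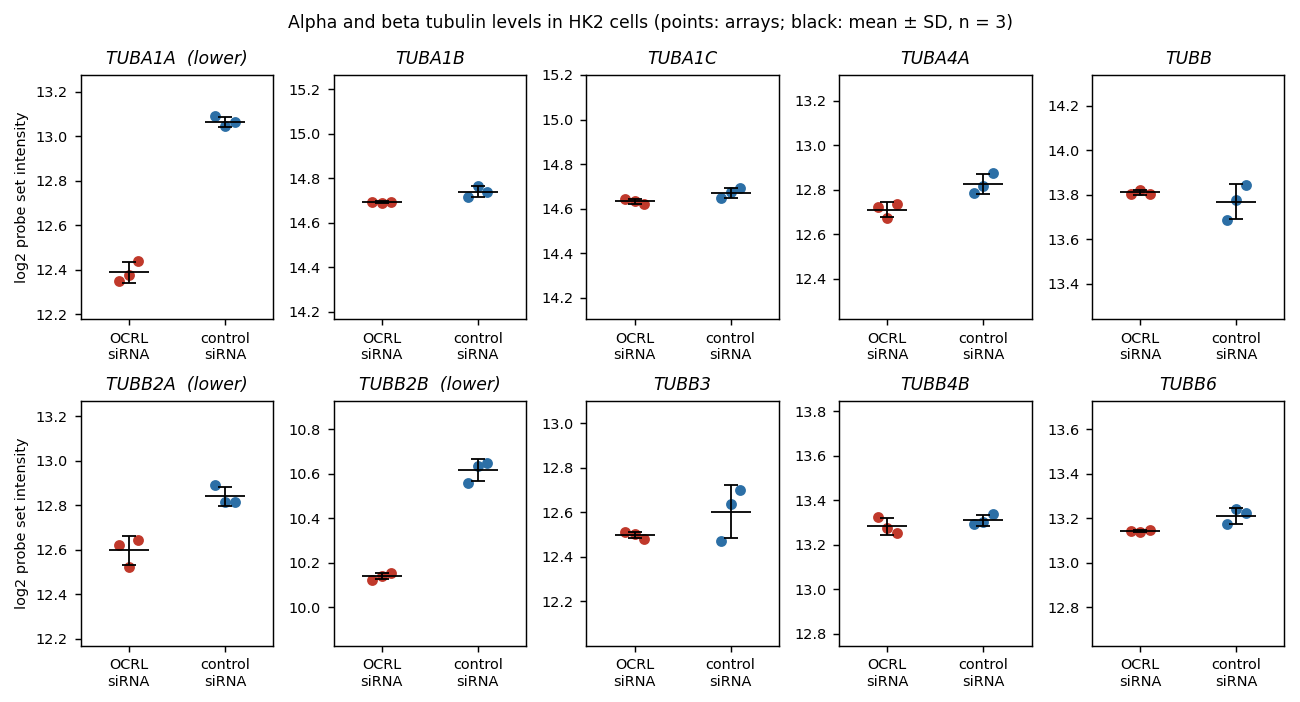
Log2 probe set intensity of the 10 tubulin genes in OCRL siRNA cells (red) and control siRNA cells (blue), with 1 point per array and the mean ± SD of 3 arrays in black. Each panel shows the brightest probe set of the gene over a range of the same width. The groups stand apart most in TUBA1A (12.35 to 12.44 against 13.05 to 13.09) and TUBB2B (10.12 to 10.15 against 10.56 to 10.65).

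The 3 genes that fell are shown with the RefSeq sequence before their transcription start, since each was called lower. Whether they share regulation was not tested. Each line gives the 250 bases upstream of the annotated start (GRCh38.p14), written 5′ to 3′ on the strand of the gene. Capitals mark exact matches, on either strand, to the letters searched for the TATA box, the CCAAT box and the cyclic AMP response element. All 3 genes lie on the minus strand.
TUBA1A, chr12:49189081-49189330: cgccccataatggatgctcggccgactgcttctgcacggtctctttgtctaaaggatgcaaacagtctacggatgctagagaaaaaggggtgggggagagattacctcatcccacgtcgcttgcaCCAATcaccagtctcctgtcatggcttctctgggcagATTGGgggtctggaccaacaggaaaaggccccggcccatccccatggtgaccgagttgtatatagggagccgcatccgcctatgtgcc
TUBB2A, chr6:3157545-3157794: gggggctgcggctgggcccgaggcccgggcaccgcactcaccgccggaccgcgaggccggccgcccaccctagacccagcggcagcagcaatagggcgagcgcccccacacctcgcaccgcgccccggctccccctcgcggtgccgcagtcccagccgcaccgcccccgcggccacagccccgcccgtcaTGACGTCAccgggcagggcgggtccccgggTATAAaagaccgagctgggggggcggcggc
TUBB2B, chr6:3227654-3227903: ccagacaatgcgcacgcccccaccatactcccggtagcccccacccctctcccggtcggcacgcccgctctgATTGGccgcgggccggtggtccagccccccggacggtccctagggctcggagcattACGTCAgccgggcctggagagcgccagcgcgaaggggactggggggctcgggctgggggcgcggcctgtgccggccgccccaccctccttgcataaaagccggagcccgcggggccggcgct

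The TATA box was searched as TATAA and the cyclic AMP response element as TGACGTCA, with its closing letters, ACGTCA, also counted alone. The CCAAT box was searched by the letters of its name. The TUBA1A window held 2 CCAAT boxes, at 125 and 88 bases before the start, and neither TATAA nor ACGTCA. The TUBB2A window held TATAA at 30 bases before the start and TGACGTCA at 60 bases. The TUBB2B window held ACGTCA at 122 bases and 1 CCAAT box at 178 bases before the start. None of the letter strings searched was thus present in all 3 windows. Other spellings of these motifs, variant TATA boxes among them, were not searched. CCAAT was found in 32% of all 35116 annotated promoter windows of this length, TATAA in 18.9%, ACGTCA in 7.1% and TGACGTCA in 1.65%. All 10 member genes matched RefSeq entries, with 15 windows in all because several have more than 1 annotated start. Of these 15 windows, 9 held CCAAT, 5 held TATAA, 2 held ACGTCA and 1 held TGACGTCA. A match is a description of the letters and not a binding site.

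The alpha tubulins are taken first. TUBA1A, the alpha isotype that dominates in developing neurons, fell most of all members. Its probe set 209118_s_at stood at 12.35, 12.38 and 12.44 in the OCRL siRNA arrays, against 13.09, 13.05 and 13.06 in the control siRNA arrays. All 3 OCRL siRNA arrays lay below all 3 control arrays, and the gap between the groups was several times the range within either. The means were 12.39 ± 0.047 and 13.07 ± 0.023 (SD, n = 3 each). The level was 1.60-fold lower, with a limma difference of -0.68 (SE 0.045, adjusted p = 1.47e-04). In control cells the probe set was brighter than most on the array, and over all 6 arrays 96.4% of probe sets were dimmer. A name ending in _s_at means that its probes match more than 1 transcript, and the part of other alpha tubulin mRNAs in this signal was not tested.

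TUBA1B and TUBA1C, the ubiquitous alpha tubulins, were among the brightest signals of the arrays and were not called. The brightest TUBA1B probe set, 213646_x_at, was at 14.70, 14.69 and 14.69 in OCRL siRNA cells, against 14.71, 14.77 and 14.74 in control siRNA cells. The brighter TUBA1C probe set, 209251_x_at, was at 14.64, 14.64 and 14.62 in OCRL siRNA cells, against 14.65, 14.68 and 14.69 in control siRNA cells. In both, the OCRL siRNA arrays lay just below the control arrays, with differences of -0.05 (95% interval -0.14 to 0.05) for TUBA1B and -0.04 (-0.13 to 0.06) for TUBA1C. All 5 TUBA1B and both TUBA1C probe sets had a difference below 0, from -0.07 to -0.005, and in 6 of these 7 the groups did not overlap, beside 40.7% of all probe sets (18.9% lower). The 7 are not separate measurements, and none was called. For the brightest TUBA1B probe set, 99.8% of probe sets were dimmer, and the brightest value on any array was 15.08. All 7 end in _x_at, the mark of probe sets with probes that also match other genes, and the signals of TUBA1B and TUBA1C were not separated.

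TUBA4A encodes an alpha tubulin that lacks the terminal tyrosine in its gene-encoded form. Its probe set 212242_at was at 12.72, 12.67 and 12.73 in OCRL siRNA cells, against 12.79, 12.81 and 12.87 in control siRNA cells. The groups did not overlap, but the gap between them was no wider than the range within a group. The difference was -0.11 (SE 0.045, 95% interval -0.22 to -0.006), with an unadjusted p of 0.0412 and an adjusted p of 0.124 (limma). TUBA4A passed with moderation of the variance by trend and robust settings (adjusted p = 0.0128) and with dim probe sets left out of the fit (adjusted p = 0.0362).

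Among the beta tubulins, the neighbouring genes TUBB2A and TUBB2B, which encode nearly the same protein, both fell. The TUBB2B probe set 214023_x_at was at 10.12, 10.14 and 10.15 in OCRL siRNA cells, against 10.56, 10.64 and 10.65 in control siRNA cells. The OCRL siRNA arrays lay within 0.03 of each other and well below the lowest control array. The means were 10.14 ± 0.015 and 10.61 ± 0.050 (SD, n = 3 each). The level was 1.39-fold lower, with a limma difference of -0.47 (SE 0.044, adjusted p = 5.63e-04). This probe set ends in _x_at, and the part of TUBB2A mRNA in its signal was not tested.

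The TUBB2A probe set 204141_at was at 12.62, 12.52 and 12.65 in OCRL siRNA cells, against 12.89, 12.82 and 12.82 in control siRNA cells. The groups did not overlap. The OCRL siRNA arrays were spread more widely than for TUBB2B, and the control arrays slightly less widely. The means were 12.60 ± 0.064 and 12.84 ± 0.043 (SD, n = 3 each). The level was 1.18-fold lower, with a limma difference of -0.24 (SE 0.051, adjusted p = 0.0148). TUBB2A is the only one of the 3 called genes whose probe set carries neither the _s_at nor the _x_at mark. The shared probe set 209372_x_at, annotated to TUBB2A and TUBB2B together, was at 9.58, 9.63 and 9.62 in OCRL siRNA cells, against 9.69, 9.81 and 9.87 in control siRNA cells. Its difference of -0.18 (SE 0.057) was not called (adjusted p = 0.0634, limma), although its groups did not overlap, and it was called in 6 of 12 other settings (adjusted p = 0.0142 to 0.178 over the 12).

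TUBB, the general beta tubulin of dividing cells, was not called by any of its 3 probe sets, and these did not share a direction. The brightest, 211714_x_at, was at 13.81, 13.82 and 13.80 in OCRL siRNA cells, against 13.69, 13.78 and 13.84 in control siRNA cells. The OCRL siRNA arrays lay inside the range of the controls, and the difference was 0.04 (95% interval -0.08 to 0.16). Probe set 209026_x_at had a difference of 0.009. Probe set 212320_at, which carries no mark of shared probes, had a difference of -0.03 (95% interval -0.12 to 0.06). As percent change of the control level, the 95% intervals of the 3 TUBB probe sets together ran from -8.20% to 12.0%.

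TUBB3, a beta tubulin used as a neuronal marker and also found in cultured and cancer cells, was not called. Its brighter probe set 213476_x_at was at 12.51, 12.50 and 12.48 in OCRL siRNA cells, against 12.47, 12.64 and 12.70 in control siRNA cells. The first control array lay below all OCRL siRNA arrays and the other controls above them, so the groups overlapped. The difference was -0.11 (SE 0.065, adjusted p = 0.311, limma). Without control replicate 1 the difference was -0.17 and this probe set was called (adjusted p = 0.0412, limma), so its result rests on that array. The dimmer TUBB3 probe set 202154_x_at had a difference of -0.09 (adjusted p = 0.270, limma). Without control replicate 1 it was not called either (adjusted p = 0.0800, limma).

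TUBB4B and TUBB6, both widely expressed beta tubulins, were not called. TUBB4B, a beta tubulin of cilia and of general microtubules, was at 13.32, 13.27 and 13.25 in OCRL siRNA cells and at 13.29, 13.30 and 13.34 in control siRNA cells by 213726_x_at. The groups overlapped, and the differences of its 2 probe sets were -0.03 (95% interval -0.13 to 0.07) and -0.02 (-0.13 to 0.09). TUBB6 was at 13.14, 13.14 and 13.15 in OCRL siRNA cells, against 13.17, 13.24 and 13.22 in control siRNA cells. The TUBB6 groups did not overlap, with a difference of -0.07 (SE 0.041, adjusted p = 0.303, limma). Over the 19 member probe sets the groups did not overlap in 12, all with the OCRL siRNA arrays lower, where over all probe sets 40.7% did not overlap and 18.9% did so with these arrays lower. Of the 12, 6 are TUBA1B and TUBA1C probe sets whose signals were not separated, and nothing is read from the count.

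**Figure D2:**
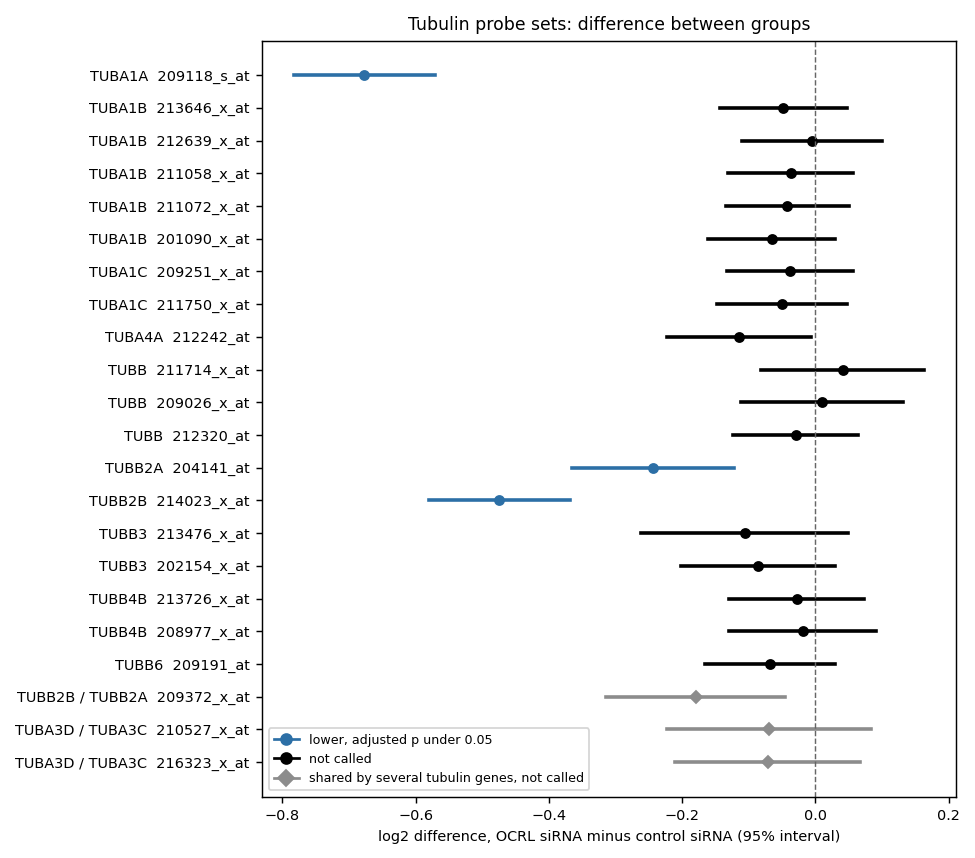
Log2 difference (OCRL siRNA minus control siRNA) of the 22 tubulin probe sets with 95% intervals from limma, the 3 shared ones as grey diamonds. The intervals of TUBA1A, TUBB2B and TUBB2A lie wholly below 0, as do those of TUBA4A and the shared TUBB2A and TUBB2B probe set, which were not called after adjustment.

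The probe sets annotated to TUBA3C and TUBA3D together, alpha tubulins best known from testis, were not called either. The brighter was at 9.08, 9.12 and 9.13 in OCRL siRNA cells, against 9.07, 9.26 and 9.20 in control siRNA cells. Their differences were -0.07 (SE 0.058) and -0.07 (SE 0.065), and the groups overlapped in both.

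The called tubulins are also given relative to the uncalled tubulins of their class within each array, where a scaling of the whole array cancels. As called genes were set against uncalled ones of the same contrast, the direction of these differences was fixed by that choice, and they are a description with no test. TUBA1A minus the mean of TUBA1B, TUBA1C and TUBA4A was -1.67, -1.62 and -1.57 in OCRL siRNA cells, against -0.96, -1.04 and -1.04 in control siRNA cells. This log2 ratio differed by -0.61 between the groups, which did not overlap. TUBA1B and TUBA1C, which enter this mean, lay near the top of the arrays' range, where a change may register less; this was not tested. TUBB2B minus the mean of TUBB, TUBB3, TUBB4B and TUBB6 was -3.07, -3.04 and -3.02 in OCRL siRNA cells, against -2.60, -2.60 and -2.63 in control siRNA cells. For TUBB2A the same measure was -0.57, -0.66 and -0.53 in OCRL siRNA cells, against -0.27, -0.42 and -0.46 in control siRNA cells. The gap for TUBB2A was narrow, and that for TUBB2B was wide. The level of such a ratio depends on the probes and has no meaning of its own. TUBB2B minus TUBB2A, both of them called, was at -2.46 ± 0.064 in OCRL siRNA cells and -2.23 ± 0.092 in control siRNA cells (SD, n = 3 each). The signals of these genes were not separated.

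**Figure D3:**
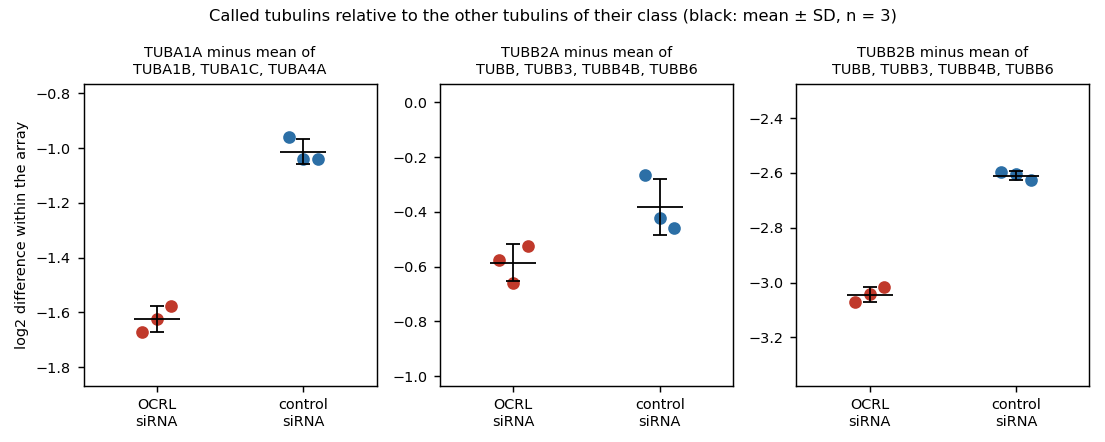
Log2 difference within each array between a called tubulin and the mean of the uncalled tubulins of its class, with 1 point per array and the mean ± SD of 3 arrays in black. OCRL siRNA arrays (red) lie below control siRNA arrays (blue) in all 3 panels, by 0.61, 0.20 and 0.43 between the means, a direction fixed by setting called against uncalled genes. The axes span equal widths.

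The genes whose 6 values followed TUBA1A most closely were NPY1R, a receptor of neuropeptide Y, CRIM1, a membrane protein that binds BMP ligands, and BICC1, an RNA-binding protein known from cystic kidney. Likeness was the root mean square difference of the log2 values after centring each gene on its own mean over the 6 arrays, among 11939 genes that are not tubulins. It was 0.025 for NPY1R, 0.026 for CRIM1 and 0.027 for BICC1. NPY1R was at 6.30 ± 0.055 in OCRL siRNA cells and 6.97 ± 0.027 in control siRNA cells (SD, n = 3 each). CRIM1 was at 11.09 ± 0.045 in OCRL siRNA cells and 11.78 ± 0.009 in control siRNA cells. BICC1 was at 11.45 ± 0.055 in OCRL siRNA cells and 12.09 ± 0.024 in control siRNA cells. All 3 were called lower, which was fixed by picking them for closeness to TUBA1A, and nothing is read from it. TUBB was the only member with a positive difference by its brightest probe set (-0.005 to 0.08 over 12 other settings), and APH1A, ZNF609 and TMED3 lay closest to it (0.008, 0.015 and 0.016). With a profile as flat as that of TUBB, such closeness says little.

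Markers of neurons, in which TUBA1A, TUBB2A, TUBB2B and TUBB3 are best known, did not move one way. Of 8 measured, SNAP25 (log2 difference 1.00) and ENO2 (0.46) were called higher, SYT1 (-0.84) and NEFL (-0.52) were called lower, and 4 were not called. The summed neuronal markers stood at 10.06 to 10.13 in OCRL siRNA cells and at 9.71 to 9.86 in control siRNA cells (log2 of summed intensities), and STMN2 and ELAVL4, both best known from neurons, lay below the lower quartile on every array. Over all genes, 10.5% were called lower and 15.5% higher. Of the 9 epithelial and kidney markers, 6 were called lower and 0 higher (median log2 difference -0.38), among them KRT7 (-1.49), CDH6 (-1.04) and EPCAM (-0.81). Their summed level was 14.23 to 14.27 in OCRL siRNA cells and 14.63 to 14.71 in control siRNA cells. Of 9 proximal tubule markers 3 were called higher and 0 lower, namely DPP4 (0.68), MME (0.61) and ANPEP (0.56). Over the 9, 5 differences were below 0 and 4 above (median -0.04). Their sums were 10.66 to 10.73 in OCRL siRNA cells and 10.17 to 10.22 in control siRNA cells. In a sum of intensities the brightest markers weigh most, here DPP4, so it does not describe the whole list. Of 7 fibroblast markers, LUM (-0.61), the brightest of them, was called lower. The list summed to 9.68 to 9.72 in OCRL siRNA cells and 9.95 to 10.16 in control siRNA cells. Of the 2 multiciliated, 6 leukocyte and 5 endothelial markers, 0 were called. The part of these markers in the tubulin differences was not tested. In RNA from whole cultures, fewer cells that express a gene and less RNA of it per cell cannot be told apart.

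Beyond the members, 6 lists of microtubule genes were described with 1 probe set per gene. Of 151 genes listed, 122 were measured, of which 19 were called higher and 11 lower. The called share was 24.6%, beside 26.0% of all genes, with 15.6% higher and 9.02% lower beside 15.5% and 10.5% of all genes. The balance of calls depended on the setting: without OCRL siRNA replicate 3 there were 12 higher and 7 lower, after median centring 14 and 19, and with trend and robust moderation 24 and 21. Lower calls also numbered 7 without OCRL siRNA replicate 2 or control replicate 3.

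In the list of other tubulins and the gamma-tubulin complex, which nucleates microtubules, 2 of 12 genes rose and 1 fell. Gamma-tubulin itself, TUBG1, was at 10.85, 10.79 and 10.81 in OCRL siRNA cells, against 10.49, 10.67 and 10.63 in control siRNA cells (log2 difference 0.22, SE 0.057, adjusted p = 0.0342, limma). TUBGCP3, a subunit of the gamma-tubulin complex, rose by 0.16 and, by its dimmer probe set, by 0.55. TUBB4A, a beta tubulin of the brain, was called lower (-0.26), but it was dim, at 4.77 ± 0.069 in OCRL siRNA cells and 5.03 ± 0.046 in control siRNA cells, and lay below the lower quartile of the arrays. The calls of TUBG1 and of the brighter TUBGCP3 probe set were lost in 6 and 9 of 12 other settings, with adjusted p up to 0.0984 and 0.128. The list median was -0.03.

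Of 19 genes of tubulin folding and autoregulation, limma called 1 higher and 0 lower. At an unadjusted p under 0.05 were 5 of the 19, beside 4603 of all 11963 genes. By their dimmer probe sets, not used in this count, CCT2 and CCT6A were called lower. The gene that rose was ARL2, a small GTPase that acts with the tubulin folding cofactors (log2 difference 0.31, SE 0.050, adjusted p = 0.00540). The list median was -0.07. Of 14 tubulin modifying enzymes, 3 rose and 1 fell (median 0.03). HDAC6, a deacetylase of alpha tubulin, fell by 0.33 by 1 of its 3 probe sets. VASH2, which removes the terminal tyrosine of alpha tubulin, rose by 0.39, AGBL5, a deglutamylase, by 0.34, and SIRT2, another tubulin deacetylase, by 0.18. SIRT2 kept its call in only 2 of 12 other settings (adjusted p up to 0.103).

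Of 29 microtubule-associated and plus-end genes, 4 rose and 6 fell (median -0.04). MAP1B, a microtubule-associated protein known from growing axons, fell 1.45-fold, with 10.51, 10.52 and 10.62 in OCRL siRNA cells, against 11.04, 11.11 and 11.12 in control siRNA cells (log2 difference -0.54, SE 0.050, adjusted p = 5.57e-04, limma). CLASP2, which stabilises microtubule plus ends, fell by 0.36 by its brightest probe set, and 2 of its 3 probe sets were called lower. The spindle protein gene TACC3 rose by 0.27 and MAP1S by 0.30. Of 11 destabilising and severing genes, 5 rose and 1 fell (median 0.13), where 15.5% of all genes were called higher and 10.5% lower. STMN1, which sequesters tubulin dimers, rose 1.36-fold, with 11.34, 11.41 and 11.41 in OCRL siRNA cells, against 10.98, 10.86 and 10.99 in control siRNA cells (log2 difference 0.44, SE 0.053, adjusted p = 0.00146, limma). The mitotic kinesin gene KIF18B rose by 0.42 and the katanin subunit gene KATNA1 by 0.22, while SPAST, which encodes the severing enzyme spastin, fell by 0.37 by 1 of its 2 probe sets.

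Of 37 transport motor genes, 4 rose and 2 fell (median -0.02). The kinesin gene KIF1B fell by 0.39. The dynactin subunit genes DCTN3 and DCTN5 rose by 0.32 and 0.22, and DYNC1H1, the heavy chain of cytoplasmic dynein, rose by 0.21. DYNC1H1 missed the threshold without OCRL siRNA replicate 3 (adjusted p = 0.0546) and without control replicate 2 (0.0525).

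**Figure D4:**
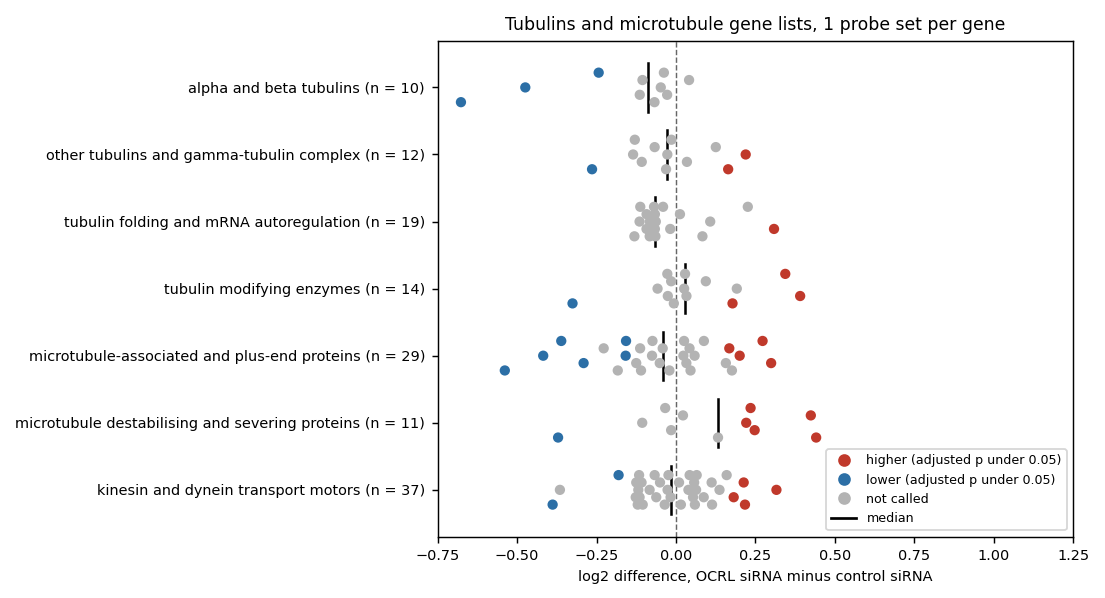
Log2 difference (OCRL siRNA minus control siRNA) of each gene in the tubulin group and in the 6 microtubule lists, with 1 point per gene and a black bar at the median of the list. Medians lie between -0.09 for the tubulins and 0.13 for the destabilising and severing genes, and called genes lie on both sides of 0 in each list except the tubulins, where all 3 are lower, and the folding genes, where the 1 called is higher.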

How the data were processed

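Gene expression was measured in 6 HK2 samples, 3 with OCRL siRNA and 3 with non-targeting siRNA, on 1 array each. The values the authors deposited are log2 probe set intensities, and the submitters' processing notes name affy and RMA, without versions. Because RMA equalises the probe intensities of the arrays before it summarises them to probe sets, a shift common to most mRNAs cannot be seen. The medians of the probe set values still differed slightly, at 7.27 to 7.30 in OCRL siRNA arrays and 7.23 to 7.24 in control arrays.

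The table held 22277 probe sets, of which 62 AFFX controls were left out. A single symbol was given for 19064, several for 1043 and none for 2108. A gene was represented by its brightest probe set (highest mean over 6 arrays). The comparison used limma 3.58.1 (R 4.3.3) with group alone in a two-sided model and Benjamini-Hochberg adjustment over 22215 probe sets and a threshold of 0.05. The fit was tested on simulated data. Promoter windows came from RefSeq (GRCh38.p14). Alternatives were blocking on replicate number, leaving out each array, quantile normalisation, median centring, trend and robust moderation, array weights, dim probe sets (mean below the median) left out, removal of the _s_at and _x_at probe sets, and the mean of the probe sets of a gene.

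The members, lists and motifs were chosen with earlier results of these data known. Genes named were all members, OCRL, up to 4 called genes of each microtubule list with the smallest p, and the 3 genes closest in pattern to the members with the largest difference in each direction. The called neuronal markers, CCT2, CCT6A and the dimmer TUBGCP3 probe set fall outside this rule and were chosen with their values in view. The numbers 1 to 3 were not treated as pairs: the deviations of same-numbered arrays from their group means correlated at 0.14, 0.12 and -0.009 over probe sets, and the labels do not say that a number marks a shared experiment. Figures were drawn with matplotlib 3.10.9.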

Additional observations from a re-analysis of the deposited data

How the results depend on the processing

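TUBA1A, TUBB2A and TUBB2B were called lower in each of the 12 refits of all arrays or all but 1, with adjusted p up to 0.00256, 0.0465 and 0.00467, and 0 members were called higher in any. The number of member probe sets called lower ranged over 3 to 4 with each array left out and was 5 with trend and robust moderation, which added TUBA4A and TUBA1B (201090_x_at, adjusted p = 0.0273); the cause was not tested. With the _s_at and _x_at probe sets removed, 1 of the 4 member probe sets that stayed was called, TUBB2A, because the probe sets of TUBA1A and TUBB2B were removed.

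With the replicate block, the same 3 tubulins were called and the list genes TUBG1, TUBGCP3 and SIRT2 were not (adjusted p = 0.0714, 0.0823 and 0.0810). The microtubule list genes called higher ranged over 12 to 17 and those called lower over 7 to 9 with each array left out. The lower calls numbered 19 after median centring, 21 with trend and robust moderation, 17 with array weights and 19 with dim probe sets left out, against 11 as deposited. The cause of these shifts was not tested. Median centring moved the median difference of all probe sets to -0.05, against -0.007 as deposited.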

Other observations

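Among other probe sets with tubulin symbols, TUBA4B, a tubulin-like gene next to TUBA4A, was at 7.48, 7.41 and 7.40 in OCRL siRNA cells, against 7.60, 7.62 and 7.63 in control siRNA cells (log2 difference -0.19, SE 0.043, adjusted p = 0.0209, limma). It was named after its values were seen. The groups did not overlap, and the difference had the sign of that of TUBA4A. Delta-tubulin, TUBD1, a tubulin of centrioles, had differences of 0.13 and 0.16 by its 2 probe sets, neither called (adjusted p = 0.140 and 0.143, limma). TUBA8, TUBAL3, TUBB1, TUBB7P and TUBBP5 had means under 6 in both groups and were not called.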
